A study of Homo sapiens with 12 samples.

Results

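The epidermal growth factor (EGF) family was described in IMR90, a long-established fibroblast line from human lung. Except for a proliferating group, the cells were irradiated to make them senescent. From day 4 these were given DMSO or an inhibitor of the cell cycle or of cytokine signalling. The members were taken by gene symbol from a table of 16383 genes and comprised 9 genes. Of these, 6 encode ligands, namely AREG, EREG, HBEGF, NRG1, TGFA and BTC, and 3 encode receptors, namely EGFR, ERBB2 and ERBB3. RNA captured by its poly(A) tail was sequenced from 12 libraries, 3 in each of 4 groups, all of wild-type genotype. Proliferating cells had received no treatment, and their time of harvest is not given in the sources used here. The senescent groups had received 20 Gy within 10 min, were given DMSO or an inhibitor, palbociclib or ruxolitinib at 2 µM, at days 4, 6, 8 and 10, and were collected at day 11. Palbociclib inhibits the cyclin-dependent kinases CDK4 and CDK6, and ruxolitinib inhibits the Janus kinases JAK1 and JAK2. Irradiation, the vehicle and any difference in time in culture therefore separate the DMSO group from proliferating cells and cannot be told apart. All groups are 1 cell line, and nothing says that the libraries came from separate cultures, so the p-values measure only the spread between these libraries, which may be technical.

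The ligands of this family are made as membrane-anchored precursors, and metalloproteinases of the ADAM family cut them free to act on the same or on neighbouring cells. AREG, TGFA, EREG, BTC and HBEGF bind EGFR, the last 3 also reach ERBB4, and NRG1 binds ERBB3 and ERBB4. ERBB2 has no known ligand and serves as the favoured partner of the other receptors, whereas ERBB3 has little kinase activity and signals through its partner. Activated receptors feed the RAS, RAF, MEK and ERK kinase relay, and senescent fibroblasts are known for releasing several of these ligands as part of their secretory programme.

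The values below are normalized counts per library, and libraries are named by their number, A116 to A127. Recovered reads over the listed genes ranged from 14106799 to 21762412 per library. The proliferation marker MKI67 fell from a mean of 13062 in proliferating cells to 1011 with DMSO, 82.5 with palbociclib and 700.2 with ruxolitinib, and the cyclin-dependent kinase inhibitor CDKN1A rose from 3389 to between 14779 and 31744 in the senescent groups. All 8 fibroblast markers examined (COL1A1, COL1A2, COL3A1, DCN, PDGFRB, THY1, VIM and FN1) averaged at least 10 in each group. Their sum was not steady. It ran from 1.04e+06 to 1.09e+06 in proliferating cells, 594836 to 601708 with DMSO, 864416 to 918700 with palbociclib and 711122 to 718482 with ruxolitinib. Of 7 epithelial markers, KRT19 and EPCAM had a mean of at least 10 over the 12 libraries, CDH1, KRT5, KRT14, SFTPC and NKX2-1 had 0 to 17 reads per library, and the sum of the list ran from 99.0 to 143 in proliferating cells, 267 to 310 with DMSO, 380 to 502 with palbociclib and 299 to 351 with ruxolitinib. The summed level of 5 leukocyte markers, mostly CD68, ran from 544 to 571 in proliferating cells, 1224 to 1306 with DMSO, 697 to 804 with palbociclib and 1068 to 1145 with ruxolitinib. PTPRC, the defining marker of that list, had 0 to 10 reads per library. The sum of 5 endothelial markers, nearly all TEK, ran from 1681 to 1949, 2389 to 2554, 3501 to 4380 and 2247 to 2254 in the same order of groups, and PECAM1 and CDH5 had 0 to 17 reads per library. The part of these levels in the results below was not tested. In bulk RNA, fewer cells of a type and less RNA per cell cannot be told apart.

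Libraries A126 (proliferating), A119 and A120 (both palbociclib) stood apart from their groups along transcript length. Among the 1023 tested genes with a main transcript of at least 8 kb, the median log2 deviation from the other libraries of the group was -0.21 in A126, -0.25 in A120 and 0.22 in A119. Among the 2570 genes under 2 kb it was 0.15, 0.20 and -0.16 in the same order. In the DMSO and ruxolitinib libraries these medians lay between -0.03 and 0.05. EGFR, at 9.905 kb, and NRG1, at 11.983 kb, are the longest of the members, and AREG, at 1.234 kb, is the shortest. Results for the members were also computed without A120 and A126, and without A119, A120 and A126. The latter leaves 1 palbociclib library, which the fit assumes to vary like the other groups, so its p-values are not given.

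AREG (amphiregulin; Entrez 374, GRCh38 chr4:74445136-74455005, plus strand), a ligand of EGFR, rose in the senescent fibroblasts and fell with palbociclib into the range of proliferating cells. Its normalized counts were 66.4, 79.9 and 34.3 in the proliferating libraries, 267.3, 286.5 and 284.5 in the DMSO libraries, 38.7, 50.4 and 49.7 with palbociclib, and 267, 217 and 239.1 with ruxolitinib. The DMSO and ruxolitinib libraries all lay above every proliferating and palbociclib library, while the last 2 groups overlapped. The group means were 60.2 ± 23.4 (SD, n = 3), 279.4 ± 10.6, 46.3 ± 6.54 and 241 ± 25.0 in the same order. Between DMSO and proliferating cells the mean differed 4.64-fold, with a log2 fold change of 2.28 (SE 0.22, limma adjusted p = 1.857e-07). Palbociclib lowered AREG against DMSO, with a log2 fold change of -2.58 (SE 0.22, adjusted p = 2.400e-07), and the mean with palbociclib was 0.166 times that with DMSO. Palbociclib-treated and proliferating cells differed by -0.30 on the log2 scale (95% confidence interval -0.77 to 0.18, adjusted p = 0.241). Without A127, the lowest proliferating library for AREG, the value was -0.65 and passed the test (adjusted p = 0.00103).

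EREG (epiregulin; Entrez 2069, GRCh38 chr4:74365145-74388749, plus strand), which binds EGFR and ERBB4, had a larger log2 fold change over proliferating cells than the other tested members with DMSO and with ruxolitinib, though with palbociclib NRG1 had a larger one. It stood at 43.6, 47.7 and 49.5 in proliferating cells, 477.1, 451.0 and 460.2 with DMSO, 150.5, 134.6 and 103 with palbociclib, and 364.2, 452 and 401.5 with ruxolitinib. The proliferating libraries were lowest, the palbociclib libraries came next with no overlap on either side, and the DMSO and ruxolitinib libraries were highest and overlapped each other. The mean was 9.86 times higher with DMSO than in proliferating cells (46.9 ± 3.04 and 462.8 ± 13.2, log2 fold change 3.28, SE 0.13, adjusted p = 3.454e-12). Palbociclib brought it to 129.4 ± 24.2, 0.280 times the mean with DMSO (log2 fold change -1.85, SE 0.13, adjusted p = 1.905e-08). EREG stayed above proliferating cells under palbociclib, by 1.43 on the log2 scale (adjusted p = 5.500e-08).

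AREG and EREG are neighbours on chromosome 4, transcribed in the same direction, with 56.4 kb between them, whereas HBEGF lies on chromosome 5. The 250 bases before the start of these 3 genes in RefSeq (GRCh38.p14) are printed because AREG and EREG fell with palbociclib and HBEGF did not pass the test. They are written in the direction of transcription, 5′ to 3′, at chr4:74444886-74445135 on the plus strand for AREG, chr4:74364895-74365144 on the plus strand for EREG and chr5:140346604-140346853 on the minus strand for HBEGF. Capitals mark matches to the core promoter motif TATAAA and to TGACGTCA, the cyclic AMP response element.
AREG: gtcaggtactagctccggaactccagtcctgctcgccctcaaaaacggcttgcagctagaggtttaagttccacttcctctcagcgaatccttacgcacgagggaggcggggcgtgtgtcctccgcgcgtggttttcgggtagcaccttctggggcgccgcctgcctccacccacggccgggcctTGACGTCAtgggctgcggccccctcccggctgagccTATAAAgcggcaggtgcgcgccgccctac
EREG: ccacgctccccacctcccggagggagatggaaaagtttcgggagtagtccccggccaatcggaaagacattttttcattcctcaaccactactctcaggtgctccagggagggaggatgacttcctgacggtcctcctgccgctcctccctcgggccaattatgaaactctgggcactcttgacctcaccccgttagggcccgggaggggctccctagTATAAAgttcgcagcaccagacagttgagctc
HBEGF: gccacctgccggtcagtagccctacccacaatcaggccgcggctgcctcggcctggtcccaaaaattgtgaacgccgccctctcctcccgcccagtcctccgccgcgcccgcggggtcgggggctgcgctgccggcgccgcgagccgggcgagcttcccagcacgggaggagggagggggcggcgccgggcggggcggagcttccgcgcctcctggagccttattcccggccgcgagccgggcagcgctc
Matches were sought on both strands, and each is a description, not a bound site. AREG held TATAAA at position -29 and TGACGTCA at -65, counted from the start, and EREG held TATAAA at -32. HBEGF held neither. The SP1 motif GGGCGG, left in lower case, had 5 matches in the HBEGF window, 1 in that of AREG (minus strand, at -9) and 0 in that of EREG. Over 35116 RefSeq promoter windows of the same length, 10.7% held TATAAA, 1.65% TGACGTCA and 42.6% GGGCGG. The AP-1 motif TGANTCA and the STAT motif TTCNNNGAA, which 6.57% of windows each held, and the NF-kB motif, held by 9.96%, had no match in these 3 windows. Windows of 7 of the 9 members were used here, without NRG1 and ERBB3.

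NRG1 (neuregulin 1; Entrez 3084), the ligand of ERBB3 and ERBB4, also rose in senescent cells and was partly lowered by palbociclib. Its values were 261.5, 217.4 and 263.8 in proliferating cells, 1386, 1447 and 1428 with DMSO, 1017, 721.4 and 843.9 with palbociclib, and 1334, 1412 and 1398 with ruxolitinib. The palbociclib libraries lay between the other senescent libraries and the proliferating ones, without overlap. With DMSO the mean was 5.74 times that of proliferating cells (log2 fold change 2.52, SE 0.10, adjusted p = 5.009e-12). Palbociclib lowered the mean to 0.606 times that with DMSO (log2 fold change -0.74, SE 0.10, adjusted p = 2.971e-05), still 3.48 times that of proliferating cells. NRG1 was highest in A119 and lowest in A120 among the palbociclib libraries, in the same order as the genes of at least 8 kb, and the part of this in its level was not tested. The log2 fold change with palbociclib was -0.62 without A120 and A126 and -0.75 without A119, A120 and A126.

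HBEGF (heparin-binding EGF-like growth factor; Entrez 1839, GRCh38 chr5:140332843-140346603, minus strand) rose in senescence as well, and palbociclib gave no called difference. It measured 368.4, 393.7 and 344.7 in proliferating cells, 694.9, 720.9 and 707.7 with DMSO, 700.5, 888.9 and 737.3 with palbociclib, and 748.4, 742 and 795.9 with ruxolitinib. Every senescent library was above every proliferating one, and the 3 senescent groups were close together. The mean with DMSO was 1.92 times that of proliferating cells (log2 fold change 0.94, SE 0.08, adjusted p = 5.220e-08). Palbociclib and DMSO differed by 0.12 on the log2 scale (95% confidence interval -0.05 to 0.30, adjusted p = 0.230), and the sign turned to -0.10 (adjusted p = 0.329) when libraries were scaled to the same total.

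TGFA (transforming growth factor alpha; Entrez 7039, GRCh38 chr2:70447284-70554193, minus strand) and BTC (betacellulin; Entrez 685, GRCh38 chr4:74744759-74794523, minus strand) were near the limit of detection and did not reach the mean of 10 normalized counts required for testing. TGFA had 0 reads in all proliferating libraries, 0, 5 and 4 with DMSO, 2, 1 and 1 with palbociclib, and 2, 1 and 3 with ruxolitinib. BTC had 0 reads in all proliferating libraries, 3, 1 and 1 with DMSO, 0, 0 and 1 with palbociclib, and 1, 1 and 3 with ruxolitinib. A difference between the senescent groups was not detectable for these 2 ligands at this depth.

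**Figure D1:**
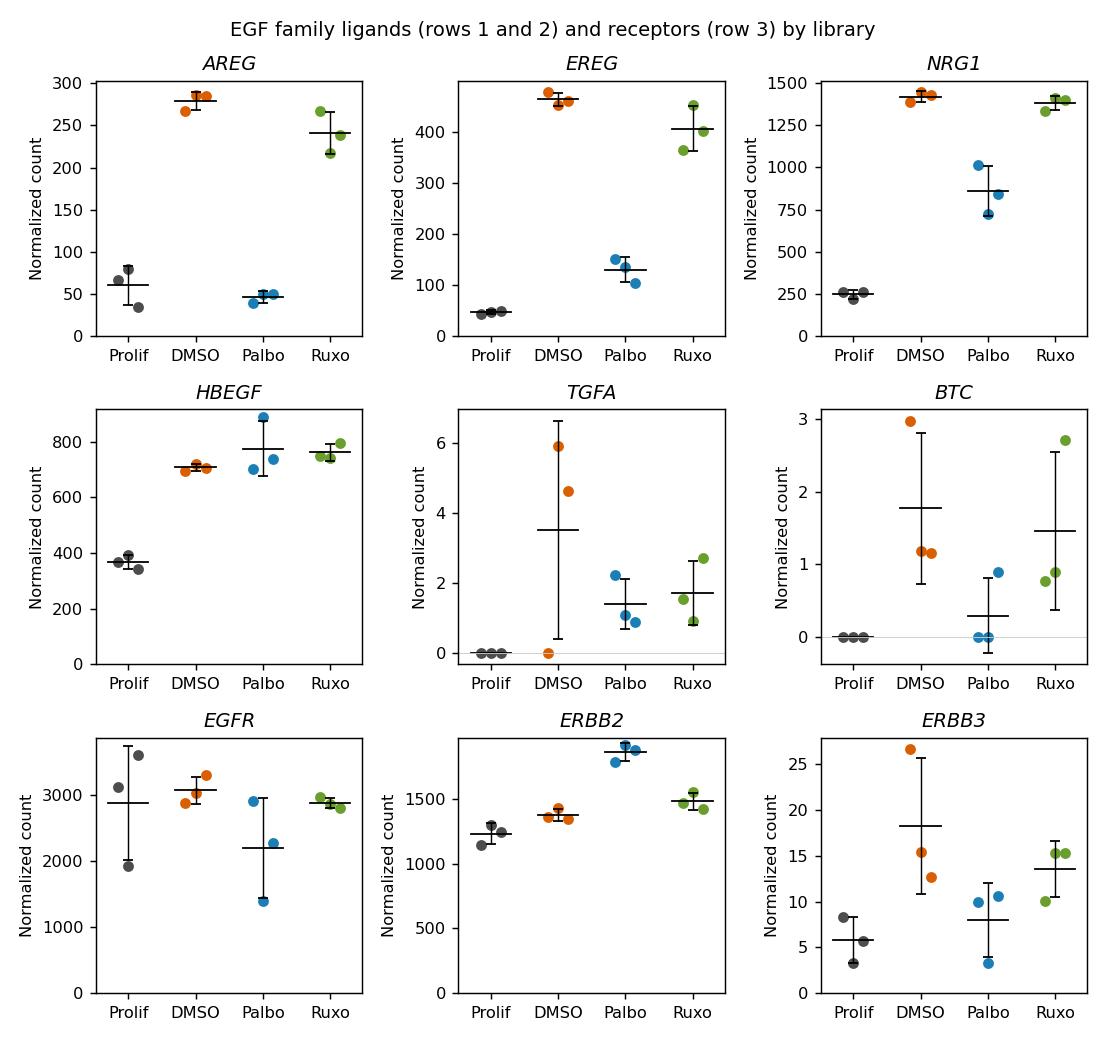
Normalized counts of each of the 9 members in every library, with 1 panel per gene, the 4 groups along the horizontal axis, points for libraries and a bar for the group mean. AREG, EREG and NRG1 were high with DMSO and ruxolitinib and lower with palbociclib, HBEGF was high in all senescent groups, and EGFR was lowest in A120 and A126.

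To compare the ligands with one another, normalized counts were divided by the length of the main transcript. The summed level of the ligands was lowest in proliferating cells, at 236.1 ± 27.1 normalized counts per kb (SD, n = 3). It was 746.9 ± 13.9 in the DMSO group, 466.7 ± 35.2 under palbociclib and 722.7 ± 14.99 under ruxolitinib. The ranges of proliferating cells (206.7 to 260.1), palbociclib (446.3 to 507.4) and DMSO (731.4 to 758.2) did not overlap. With the main transcripts used here, HBEGF made up the largest share per kb in each group. Before division by length, NRG1 had the higher mean in the senescent groups. It was 1420 against 707.8 for HBEGF with DMSO, 860.8 against 775.5 with palbociclib and 1381 against 762.1 with ruxolitinib. Its share was 66.5% ± 3.63 in proliferating cells, 40.2% ± 0.202 after DMSO, 70.3% ± 3.88 after palbociclib and 44.7% ± 1.02 after ruxolitinib. AREG went from 20.2% ± 6.00 in proliferating cells to 30.3% ± 0.604 with DMSO, and it stood at 8.03% ± 1.00 with palbociclib and 27.0% ± 2.56 with ruxolitinib. With DMSO the share of HBEGF was smaller, and those of AREG, EREG and NRG1 were larger, than in proliferating cells. With palbociclib the share of HBEGF overlapped that of proliferating cells at a higher summed level. EREG accounted for 4.36% ± 0.721, 13.4% ± 0.637, 6.02% ± 1.17 and 12.2% ± 1.52 in proliferating, DMSO, palbociclib and ruxolitinib cells. NRG1 accounted for 8.89% ± 1.84, 15.9% ± 0.0551, 15.6% ± 3.58 and 16.0% ± 0.661 in that order. These values, the summed level, the other shares and the rank of HBEGF depend on which NRG1 transcript is taken as the main one.

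**Figure D2:**
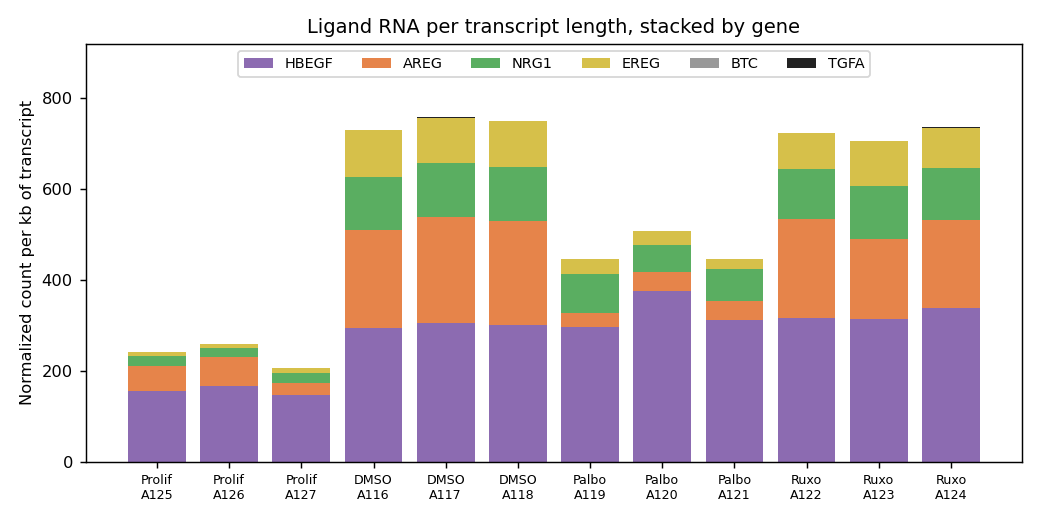
Level of the ligands per kb of transcript, stacked by ligand for each library in the 4 groups. The summed level is near 747 with DMSO, 467 with palbociclib and 236 in proliferating cells, and HBEGF is the largest part in each group. Both depend on which NRG1 transcript is taken as the main one.

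Among the receptors, EGFR (Entrez 1956, GRCh38 chr7:55019017-55211628, plus strand), which binds most of these ligands, did not pass the test in any of the 6 comparisons as fitted, and whether it passed depended on the alternative in some of them. Its values were 3116, 1914 and 3596 in proliferating cells, 2880, 3027 and 3291 with DMSO, 2899, 1396 and 2275 with palbociclib, and 2963, 2856 and 2802 with ruxolitinib. Every pair of groups overlapped, and the spread was wide in the groups that hold A126 and A120, its lowest libraries. DMSO and proliferating cells differed by 0.14 on the log2 scale (95% confidence interval -0.33 to 0.61, adjusted p = 0.577). Palbociclib and DMSO differed by -0.55 (95% confidence interval -1.01 to -0.08, adjusted p = 0.0508).

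The level of EGFR moved with the libraries that stood apart along transcript length. Its log2 deviation from the other libraries of the group was -0.88 in A120, -0.81 in A126, 0.70 in A119 and 0.56 in A127. Without A126 the difference between DMSO and proliferating cells turned to -0.13 (adjusted p = 0.549). It was also -0.13 without A120 and A126 (adjusted p = 0.121) and without A119, A120 and A126. For palbociclib against DMSO, the EGFR difference was -0.25 without A120 and A126 (adjusted p = 0.00695) and -0.78 without A119 (adjusted p = 0.00447). Without all 3 libraries it was -0.43. Without A120 alone it was -0.25 (adjusted p = 0.2503). The direction with palbociclib was the same in all 24 alternatives that gave a value, while its size ran from -0.78 to -0.25. When single libraries were left out, its adjusted p ran from 0.00447 to 0.2503. It passed the test in 9 of the 24, a count that includes the fit with 1 palbociclib library. Palbociclib and proliferating cells differed by -0.41 (95% confidence interval -0.87 to 0.06, adjusted p = 0.106). That value ran from -0.68 (without A126, adjusted p = 0.00415) to -0.11 when single libraries were left out. It was -0.56 without A119, A120 and A126. It passed in 4 of 24 alternatives, a count that includes the fit with 1 palbociclib library. The part of transcript length in these values was not tested.

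**Figure D3:**
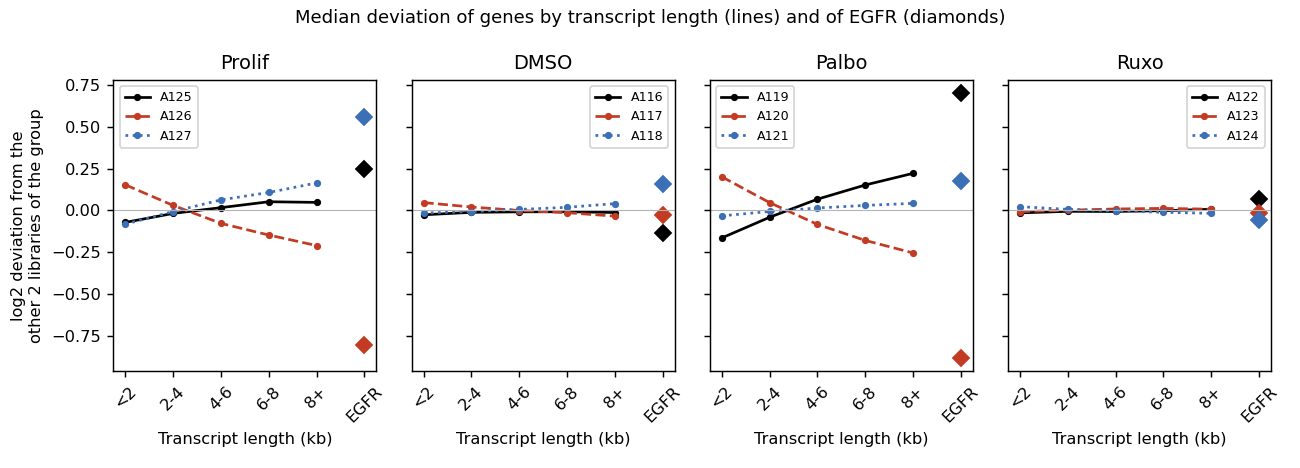
Median log2 deviation of each library from the other 2 of its group, by class of transcript length in kb, with the deviation of EGFR beside it. Genes of at least 8 kb are low in A126 (-0.21) and A120 (-0.25) and high in A119 (0.22), and EGFR deviates in the same direction in these libraries.

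ERBB2 (Entrez 2064, GRCh38 chr17:39687914-39730426, plus strand), the partner receptor with no known ligand, was higher with palbociclib. It stood at 1142, 1303 and 1247 in proliferating cells, 1358, 1429 and 1344 with DMSO, 1786, 1922 and 1883 with palbociclib, and 1474, 1555 and 1421 with ruxolitinib. The palbociclib libraries were above all others, and the DMSO libraries were above the proliferating ones by a small margin. Against DMSO the mean with palbociclib was 1.35 times higher (log2 fold change 0.44, SE 0.06, adjusted p = 2.881e-05). With DMSO it was 1.12 times that of proliferating cells (log2 fold change 0.16, SE 0.06, adjusted p = 0.0234), a call that was lost without A125 (0.11, adjusted p = 0.131) or without A117 (0.14, adjusted p = 0.0914).

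ERBB3 (Entrez 2065, GRCh38 chr12:56076799-56103505, plus strand), the receptor of NRG1, was expressed at a low level. It reached the mean of 10 over all libraries only through the DMSO and ruxolitinib groups, so the filter favoured a difference in that direction. Each gene is fitted on its own, so dropping the filter cannot change the log2 fold changes of ERBB3 and gives no separate support. The adjusted p without the filter was 0.00708 for DMSO against proliferating cells and 0.0457 for palbociclib against DMSO. The calls of ERBB3 are therefore given as a description only. Its reads numbered 8, 3 and 6 in proliferating cells, 27, 13 and 11 with DMSO, 9, 3 and 12 with palbociclib, and 13, 17 and 17 with ruxolitinib. Every DMSO library was above every proliferating and palbociclib library in normalized counts, whose means were 5.78 ± 2.49, 18.3 ± 7.44, 7.97 ± 4.07 and 13.6 ± 3.06 in that order of groups. The log2 fold change between DMSO and proliferating cells was 1.51 (SE 0.46, adjusted p = 0.00763). With palbociclib it was -1.17 (SE 0.46, adjusted p = 0.0453), and this call was lost without A116, the highest DMSO library (-0.87, adjusted p = 0.190), without A120 (-0.70, adjusted p = 0.213) and without A117, A122, A123 or A124. Per kb of transcript, ERBB3 averaged 1.03, 3.26, 1.42 and 2.41 in the 4 groups, against 270.1, 302.1, 409.0 and 325.5 for ERBB2 and 290.3, 309.6, 221.1 and 290.1 for EGFR. At the level of RNA, EGFR and ERBB2 were thus the main receptors of the family in each group.

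The remaining family genes were low. EGF itself averaged 54.4 ± 11.6 normalized counts in proliferating cells, 50.8 ± 3.17 in the DMSO group, 54.1 ± 9.09 under palbociclib and 40.1 ± 7.70 under ruxolitinib, and passed the test in none of the 6 comparisons. ERBB4, the other receptor of NRG1, had 0, 5, 10 and 15 reads summed over the 3 libraries of the proliferating, DMSO, palbociclib and ruxolitinib groups. NRG2 had 7, 14, 7 and 13 reads and NRG3 had 0, 0, 3 and 4 in the same order. EPGN and NRG4 were not analysed here.

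Comparing senescent DMSO cells with proliferating cells asked what irradiation-induced senescence does to the family. Of the 9 members, 7 were tested, and 6 averaged at least 10 in every group. Among these 6, AREG, EREG, NRG1, HBEGF and ERBB2 rose, that is 5, and 0 fell. ERBB3, which passed the filter only through the groups where it was high, was also called higher and is left out of these counts. Over all 11242 genes tested, 72.4% were called, 33.0% higher and 39.3% lower. For these 5 members the libraries of the groups did not overlap, as for 75.1% of all genes. In the 4 tested ligands the median log2 fold change was 2.40, beside -0.05 over all genes. That of the 3 receptors, here with ERBB3 included, was 0.16. The 2 ligands that were not tested had no reads in proliferating cells and 9 (TGFA) and 5 (BTC) with DMSO. Scaling to the same total shifted the median gene by 0.23 and to the same upper quartile by 0.16, and the share of higher genes among the called ones went from 45.7% to 64.0% and 58.6%. The 4 ligands rose under each of these scalings.

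Comparing palbociclib with DMSO asked what inhibiting CDK4 and CDK6 from day 4 does in irradiated cells. Whether the cells were already senescent at day 4 was not tested. At harvest MKI67 averaged 1011 with DMSO and 82.5 with palbociclib. AREG, EREG and NRG1 fell, ERBB2 rose, and HBEGF and EGFR did not pass the test. So 3 of the 6 members were lower and 1 higher, apart from ERBB3 (called lower), beside 22.3% lower and 26.0% higher over all genes (48.3% in either direction). The groups did not overlap for these 4 members, as for 54.8% of all genes. The median of the 4 ligands was -1.29, beside 0.02 over all genes. Scaling to the same total shifted the median gene by -0.23 and took the share of higher genes among the called ones from 53.9% to 15.4%. AREG, EREG and NRG1 remained lower and ERBB2 remained higher under that scaling.

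Comparing ruxolitinib with DMSO asked what inhibiting the Janus kinases does in the same cells, and none of the 7 tested members passed the test. The differences were -0.22 for AREG (95% confidence interval -0.69 to 0.26), -0.19 for EREG (-0.47 to 0.08), -0.04 for NRG1 (-0.26 to 0.18) and 0.11 for HBEGF (-0.07 to 0.28), all on the log2 scale. For the receptors they were -0.09 for EGFR (-0.56 to 0.37), 0.11 for ERBB2 (-0.02 to 0.23) and -0.36 for ERBB3 (-1.33 to 0.61). No member was called by limma, 0 of 7 had an unadjusted p under 0.05 and the smallest was 0.0954, and edgeR and DESeq2 called 0. Over all genes, limma called 4.52% here, 1.10% higher and 3.42% lower, that is 124 and 384 genes. That benchmark depends on the fit. It was 843 and 998 with only the 2 groups, and 567 and 757 without A120 and A126. Without any 1 of the 6 DMSO and ruxolitinib libraries (A116, A117, A118, A122, A123 or A124) it was 38 to 61 higher and 220 to 251 lower. The libraries of the 2 groups did not overlap for AREG, lower with ruxolitinib, and for HBEGF, higher with it, that is for 2 of 7 members beside 31.9% of all genes. None of the 25 alternatives called a member in this comparison.

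Set directly against ruxolitinib, palbociclib gave lower AREG (log2 fold change -2.36, adjusted p = 8.756e-07), EREG (-1.65, adjusted p = 9.090e-08) and NRG1 (-0.70, adjusted p = 6.658e-05), and higher ERBB2 (0.33, adjusted p = 4.894e-04). These are 3 members lower and 1 higher of 6, beside 17.6% and 22.8% over all genes (40.4% in either direction), and for these 4 the groups did not overlap, as for 51.8% of all genes. The call for ERBB2 was lost when libraries were scaled to the same total (0.13, adjusted p = 0.0959). HBEGF differed by 0.02 (95% confidence interval -0.16 to 0.19, adjusted p = 0.883). EGFR differed by -0.45 (95% confidence interval -0.92 to 0.01, adjusted p = 0.111). The EGFR value ran from -0.69 (without A119, adjusted p = 0.0117) to -0.16 (adjusted p = 0.498) when single libraries were left out. It was -0.34 without A119, A120 and A126. It passed in 4 of 24 alternatives, a count that includes the fit with 1 palbociclib library.

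**Figure D4:**
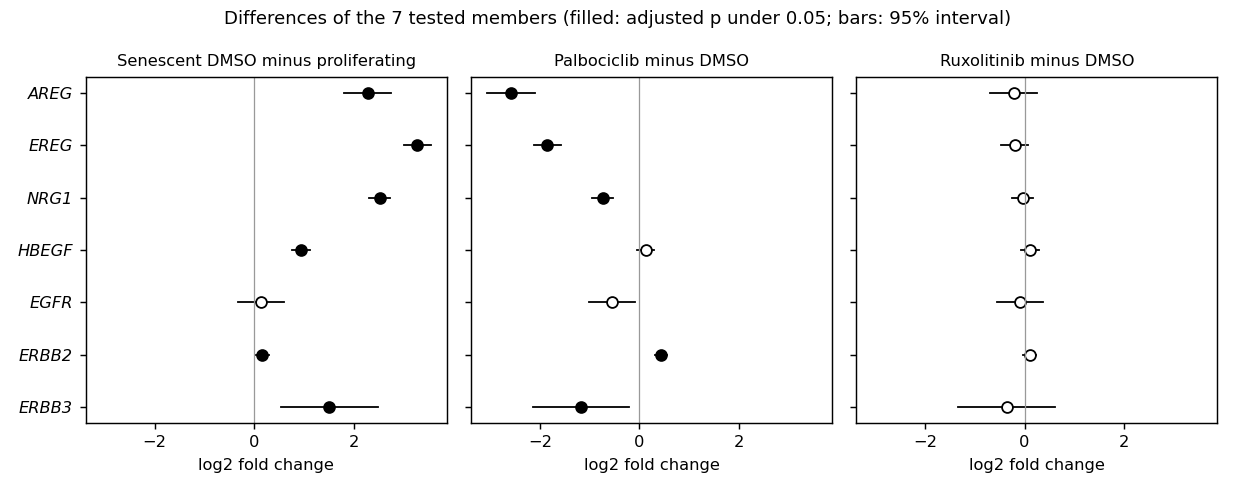
Log2 fold change of the 7 tested members with 95% confidence intervals in the comparisons of the groups. AREG, EREG and NRG1 lie far above 0 for DMSO against proliferating cells and below 0 for palbociclib against DMSO, and all intervals for ruxolitinib against DMSO include 0.

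Against proliferating cells, 4 of 6 members were higher with palbociclib and 0 lower (35.2% and 38.6% over all genes, 73.8% together), and 5 were higher and 0 lower with ruxolitinib (32.6% and 39.5%, 72.2% together). The groups did not overlap for the same 4 and 5 members, as for 70.9% and 76.2% of all genes. With palbociclib these were EREG, NRG1 (log2 fold change 1.79, adjusted p = 2.334e-10), HBEGF (1.06, adjusted p = 1.030e-08) and ERBB2 (0.60, adjusted p = 2.113e-07). With ruxolitinib, AREG was higher by 2.06 (adjusted p = 5.842e-07), EREG by 3.08 (adjusted p = 6.239e-12), NRG1 by 2.48 (adjusted p = 5.632e-12) and HBEGF by 1.05 (adjusted p = 1.443e-08). ERBB2 (0.27, adjusted p = 8.249e-04) completes the 5. ERBB3, not counted here, was also called (1.15, adjusted p = 0.0338), and its call was lost without A123, A124, A126 or A127. Comparisons with the same group share its libraries and are not independent of each other.

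Ordered by group mean, the members fell into different patterns. AREG was highest with DMSO and then ruxolitinib, whose libraries did not overlap but whose difference was not called, and lowest in proliferating and palbociclib cells, whose difference was called only without A127. EREG and NRG1 had 3 levels, with DMSO and ruxolitinib on top, palbociclib between and proliferating cells at the bottom. HBEGF had 2 levels, the senescent groups and the proliferating cells. ERBB2 had palbociclib on top, then ruxolitinib and DMSO without a called difference, then proliferating cells. For EGFR and ERBB3 no step between neighbours in the order was called.

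The other genes of the pathway were counted from lists of known components, beside the shares over all genes of 33.0% higher and 39.3% lower for DMSO against proliferating cells and 26.0% and 22.3% for palbociclib against DMSO. After scaling to the same total, 940 of 11262 genes were higher and 5176 lower with palbociclib. Among 12 genes of ligand shedding and trafficking, 7 were higher and 3 lower with DMSO than in proliferating cells (median log2 fold change 0.30), and 72.4% of all genes were called in that comparison. TIMP3, a secreted inhibitor of the sheddase ADAM17, rose from 9784 to 27376 (log2 fold change 1.49, adjusted p = 5.596e-13). ADAM15, a membrane metalloproteinase, rose from 584.5 to 1381 (1.24, adjusted p = 3.120e-10), and RHBDF2, which carries ADAM17 to the cell surface, rose from 106.9 to 241.6 (1.17, adjusted p = 1.342e-07). With palbociclib 8 of the 12 were higher than with DMSO and 0 lower (median 0.32), led by the metalloproteinase ADAM19 (from 5716 to 12299, log2 fold change 1.10, adjusted p = 6.695e-09) and TIMP3 (to 47057, 0.78, adjusted p = 6.838e-09). Scaled to the same total, 2 were higher and 2 lower, so the direction of this list with palbociclib depends on the scaling. With ruxolitinib, TIMP3 alone was called (0.19, adjusted p = 0.0407), beside 4.52% of all genes.

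Of 13 tested genes listed as brakes on the receptors, 3 were higher and 4 lower with DMSO than in proliferating cells (33.0% and 39.3% over all genes). Their median of -0.10 turned to 0.13 after scaling to the same total. The list includes USP8, ERBIN, LRIG2 and LRIG3, whose action as brakes was not tested, so its counts need not be of brakes alone. CBLB, a ubiquitin ligase, rose from 185.7 to 408.8 (log2 fold change 1.15, adjusted p = 1.101e-06). With palbociclib, 2 were higher than with DMSO and 8 lower (median -0.21), beside 26.0% and 22.3% over all genes. ERRFI1, a feedback inhibitor that binds the EGFR kinase domain, went the other way from most of the list and rose from 5628 to 11104 (0.98, adjusted p = 1.717e-10). LRIG3 fell from 225.3 to 153.0 (-0.55, adjusted p = 2.341e-04) and LRIG2 from 214.2 to 149.2 (-0.53, adjusted p = 0.00394), both members of a family of leucine-rich repeat membrane proteins. LRIG2, at 11.566 kb, was highest in A119 (180.4) and lowest in A120 (127.0) among the palbociclib libraries, like the genes of at least 8 kb. CBL, USP8 and ERBIN, also of that length, had the same order. The part of transcript length in these levels was not tested. With ruxolitinib 0 of 13 were called by limma, beside 4.52% of all genes. In the fit of only the 2 groups 1 was called, beside 843 higher and 998 lower of all 11242 genes.

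Downstream, the adaptors and the RAS, RAF, MEK and ERK relay showed no common direction that held under other scalings. Of 15 tested genes, 4 were higher and 6 lower with DMSO than in proliferating cells, beside 33.0% and 39.3% over all genes. They were 7 and 3 after scaling to the same total, which also took the share of higher genes among all called ones from 45.7% to 64.0%. MAPK3, which encodes ERK1, rose from 683.8 to 1548 (log2 fold change 1.17, adjusted p = 4.433e-09), and NRAS fell from 3320.16 to 1531 (-1.12, adjusted p = 2.892e-11). With palbociclib 6 were higher than with DMSO and 0 lower (median 0.14), but 0 and 6 after scaling to the same total (median -0.08), where 5176 of all genes were lower and 940 higher. With ruxolitinib 0 of 15 were called by limma, beside 4.52% of all genes. In the fit of only the 2 groups 2 were called, beside 843 higher and 998 lower of all 11242 genes.

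Of the ERK response genes, which are induced when the relay is active, 8 of 10 tested were lower with palbociclib than with DMSO, 1 was higher and DUSP5 was not called. Of the 10, 5 were higher and 2 lower with DMSO than in proliferating cells. DUSP4, a phosphatase of ERK, rose from 40.798 to 215.8 (log2 fold change 2.39, adjusted p = 8.971e-10) and DUSP6, another, from 982.5 to 2477 (1.33, adjusted p = 1.946e-12), while ETV4, a transcription factor, fell from 735.3 to 290.5 (-1.34, adjusted p = 5.437e-09). The list's median log2 change under palbociclib was -0.37, while 26.0% of all genes were higher and 22.3% lower. Scaling to the same total gave 1 higher and 9 lower, where 940 of all genes were higher and 5176 lower. The exception was ETV5, a transcription factor related to ETV4 and named after its values were seen, which rose from 1225 to 1736 without overlap of the libraries (0.50, adjusted p = 8.941e-07). Among the rest, DUSP4 fell to 92.3 (-1.23, adjusted p = 8.411e-06), PHLDA1 from 8165 to 4427 (-0.88, adjusted p = 3.958e-10) and EGR1, an immediate early transcription factor, from 2130 to 1362 (-0.64, adjusted p = 0.00131). With ruxolitinib 0 of 10 were called by limma, beside 4.52% of all genes. In the fit of only the 2 groups 3 were lower, beside 998 lower and 843 higher of all 11242 genes. Without A120 and A126 the counts with palbociclib against DMSO were 9 higher and 0 lower for shedding and 2 and 6 for the list of brakes. They were 9 and 0 for the relay and 1 and 8 for the ERK response genes. Over all 11276 genes tested in that fit, 3133 were higher and 2552 lower.

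**Figure D5:**
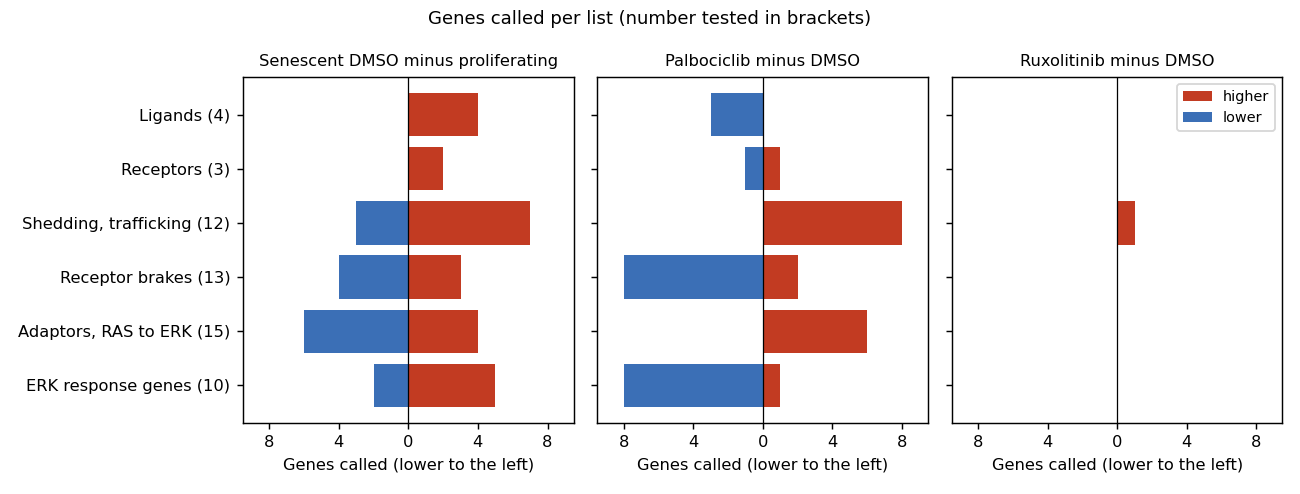
Number of tested genes called higher or lower in each list (ligands, receptors, shedding, brakes, relay and ERK response genes) for the comparisons of DMSO with proliferating cells and of each inhibitor with DMSO. The ERK response genes and the genes listed as brakes were mostly lower with palbociclib (8 of 10 and 8 of 13), beside 22.3% of all genes. With ruxolitinib 1 gene of these lists was called, beside 4.52% of all genes. ERBB3 is counted among the receptors.

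For each tested member, the 3 genes with the most similar log2 values over the 12 libraries are given as a description. The points share the same 4 groups and the same libraries. AREG was most like ANKRD10 (Pearson r = 0.983), HEXIM1 (0.965) and HMOX1 (0.964), and EREG was most like MMP3 (0.995), SERPINB2 (0.990) and FBXO32 (0.990). NRG1 followed CARD14 (0.996), HBP1 (0.995) and CCDC68 (0.995), and HBEGF followed WBP2 (0.993), CST3 (0.992) and CYBA (0.991). The closest to ERBB2 were MGAT4B (0.982), APBB1 (0.979) and ANXA2 (0.978), and to ERBB3 ZNF510 (0.941), CCNT1 (0.929) and FRAS1 (0.920). EGFR was closest to MED23 (0.982), ASH1L (0.978) and ANKRD17 (0.972). Among the members themselves, the correlation was 0.953 between EREG and NRG1, 0.849 between AREG and EREG, 0.442 between AREG and HBEGF, and -0.572 between EGFR and ERBB2.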

How the data were processed

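The authors deposited their normalized read counts per Entrez gene as 1 table with a column for each library, and these values are treated as a signal, not as raw counts. Per the submitters' processing notes, the tools used were Trimmomatic 0.38.1, HISAT2 2.2.1, featureCounts 2.0.3, FastQC 0.74, MultiQC and DESeq2 2.11.40.8, with the build GRCh38 (hg38). Whether counting used strand is not given in the sources used here. All 160380 values above 0 were whole multiples of the value of 1 read in their library, at a tolerance of 0.01 (100%), so whole reads were recovered. In A116 1 read was worth 0.990, so this column alone says little. Replicate pairs differed by more than counting noise (chi-square per degree of freedom 1.98 to 25.1), and all 12 libraries were kept.

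Of 16383 genes, the 11242 whose normalized count averaged 10 or more were tested. The test was that of limma 3.58.1 (R 4.3.3), applied to log2(value + 1). The model had 4 group means over 12 libraries, a variance trend and Benjamini-Hochberg adjustment over all genes. Calls required an adjusted p under 0.05. Fold changes are on the log2(value + 1) scale, which understates changes of low genes. The number of libraries and the spread between them limit the precision. The recovered reads were also tested with edgeR 4.0.16 and DESeq2 1.42.0, and edgeR called 4103 genes higher and 4047 lower for DMSO against proliferating cells, 2677 and 2697 for palbociclib against DMSO, and 153 and 403 for ruxolitinib against DMSO. limma called 3714 and 4420, 2927 and 2505, and 124 and 384 in the same order. The scripts were tested on simulated data. Other alternatives were pseudocounts of 0.1 and 5, other filters, 2 scalings, a fit without a trend, an adjusted p under 0.01, a fit of only the 2 groups, and leaving out libraries. Leaving out A120 and A126, or A119, A120 and A126, was chosen after seeing the data.

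Coordinates and transcript lengths are those of GENCODE v44 (GRCh38), matched by the Ensembl identifiers in the table for 99.3% of tested genes, and a length is that of the main transcript (MANE Select or Ensembl canonical). The members and the gene lists were chosen with earlier results of these data known. All 9 members are named, and from each other list at most the 3 called genes with the largest absolute log2 fold change per comparison. The column names carried a group and a library number but no replicate number.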

Additional observations from a re-analysis of the deposited data

How the results depend on the processing

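The number of members called ran, over 25 alternatives, from 5 to 8 for DMSO against proliferating cells, 4 to 6 for palbociclib against DMSO, 4 to 5 for palbociclib against ruxolitinib and against proliferating cells, 5 to 7 for ruxolitinib against proliferating cells, and was 0 throughout for ruxolitinib against DMSO. The 8 was reached with no filter, where all 9 members were tested and 4640 of 15125 genes were higher and 4432 lower. It includes TGFA and BTC, which had 0 reads in proliferating cells and 9 and 5 reads summed over the DMSO libraries. Both are near the limit of detection, so the 8 is no firmer result. The counts of members include ERBB3 where it was tested. As fitted, 72.4%, 48.3%, 40.4%, 73.8%, 72.2% and 4.52% of all genes were called in the same order of comparisons. These shares moved with the setting. With palbociclib against DMSO, 2927 genes were higher and 2505 lower as fitted, and 940 and 5176 at the same total. Of 1001 values of single members, 948 kept their direction and their side of the threshold, 18 newly passed it, 19 lost it and 16 changed sign. EREG and NRG1 changed in none, 16 of the losses were of ERBB3, and 17 of the 18 newly passing values were of EGFR. EGFR for DMSO against proliferating cells ran from -0.13 to 0.33 when single libraries were left out, and was -0.13 without A120 and A126 and without A119, A120 and A126. EGFR for ruxolitinib against proliferating cells ran from -0.22 to 0.23, and was -0.22 without A120 and A126 (adjusted p = 0.0105) and without all 3. AREG for palbociclib against proliferating cells became 0.057 without all 3. HBEGF for palbociclib against DMSO was -0.10 at the same total. HBEGF for palbociclib against ruxolitinib was -0.18 at the same total, -0.029 at the same upper quartile, -0.0040 with edgeR, -6.0e-04 with DESeq2, -0.084 without A120 and A126, -0.047 without all 3, and -0.084 to 0.088 without single libraries. The cause of these changes was not tested. No paired analysis was possible because the columns carry no replicate number. TGFA, BTC and ERBB3 are limited by depth.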

Other observations

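The neighbourhood of EREG, AREG and BTC on chromosome 4 also holds chemokine genes. Within 500 kb of the stretch from EREG to BTC the table listed 11 genes, and 7 were tested: the chemokines CXCL1, CXCL2, CXCL3 and CXCL5, EREG, AREG and PARM1. CXCL1, CXCL2, CXCL3 and PARM1 averaged under 10 in proliferating cells and passed the filter only through the groups where they were high, so no count over these genes is set against all genes. EREG and AREG averaged at least 10 in every group, whereas CXCL5 averaged under 10 with palbociclib. The log2 fold changes of CXCL5 and PARM1 are therefore given without p-values, as a description. CXCL5 averaged 11.9 ± 2.48 normalized counts (SD, n = 3) in proliferating cells, 98.7 ± 21.0 in the DMSO group, 9.41 ± 3.43 under palbociclib and 83.7 ± 0.302 under ruxolitinib. Its log2 fold change was 2.94 for DMSO against proliferating cells, -3.30 for palbociclib against DMSO and -0.21 for ruxolitinib against DMSO. PARM1, a membrane mucin-like protein on the other side of BTC, averaged 7.52 ± 2.93, 70.1 ± 16.0, 31.7 ± 7.97 and 76.9 ± 20.8 in the same order. Its log2 fold change was 3.11 for DMSO against proliferating cells and -1.13 for palbociclib against DMSO. CXCL1, CXCL2 and CXCL3 are closely similar copies, so reads may have been split between them and their single values are uncertain. The window and the genes in it were chosen after their values were seen, and EPGN was not analysed here.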
